A study of Mus musculus with 6 samples.

Results

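The genes described here are 35 fibroblast and extracellular matrix genes, the matrix genes for short, out of 46078 genes in a count table of mouse colon. They were taken from a list of 42 symbols by keeping those with a row in the authors' comparison of genotypes, which holds 15138 genes, and the other 7 symbols are accounted for from the counts alone. RNA came from the epithelial fraction washed off the colon of naive mice aged 2 months, 3 libraries from wild type mice and 3 from mice labelled Lingo3-/- (the knockout), a deletion of a leucine-rich repeat membrane protein gene. The label of wild type replicate 1 gives a wash with 5 mM EDTA and 2.5 mM DTT, the labels of the other 5 libraries give EDTA only, and the protocol shared by all of them gives both agents. The labels name neither strain nor sex and do not say whether each library is a separate animal, so p-values cover the spread between the 6 libraries, part of which may be technical.

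The extracellular matrix of the gut wall is a mesh of collagen fibrils, elastic fibres, proteoglycans and basement membrane, secreted mainly by fibroblasts in the lamina propria and submucosa and also by smooth muscle, endothelial and mesothelial cells. Collagen chains are wound into triple helices inside the cell, trimmed outside it, and then joined by lysyl oxidases, which also join elastin. A wash that lifts the epithelium is meant to leave most of this tissue behind.

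Counts over genes ran from 11868000 to 28029583 per library, and all 3 wild type libraries were deeper than all 3 knockout libraries. Mitochondrial genes took 45.3 to 48.4% of counts in wild type and 34.7 to 36.3% in knockout. Levels below are CPM, read counts made comparable between libraries by TMM factors (the trimmed mean method of edgeR), on which 3 counts are worth 0.113 to 0.240 CPM. Lingo3 itself had 0 to 3 counts in every library, so it does not check the labels. Epithelial genes were abundant in every library. The epithelial adhesion gene Epcam had 18251, 17077 and 16655 counts in the wild type and 17616, 15942 and 12575 in the knockout libraries. Krt8, an epithelial keratin, had 29762, 31021 and 29356 counts in the wild type and 25080, 27524 and 22347 in the knockout libraries. These are raw counts from libraries of unlike depth, so they do not compare the genotypes. Scaled for depth, 14 pan-epithelial genes summed to 7274, 6124 and 7049 CPM in wild type and 7084, 7371 and 8670 CPM in knockout. Such abundance does not show that the fraction was pure: the matrix genes summed to 0.0639 to 0.293 times this level.

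The matrix genes were present in every library, and their level varied widely between libraries of 1 genotype. Their summed level was 1979, 1794 and 706 CPM in wild type and 977, 471 and 803 CPM in knockout. Wild type replicates 1 and 2 stood far above the rest, while wild type replicate 3 lay below knockout replicates 1 and 3, so that the groups overlapped. The median gene stood at 132% of its wild type mean in wild type replicate 1, 119% in replicate 2 and 47.1% in replicate 3, and at 60.3%, 31.2% and 49.3% in knockout replicates 1, 2 and 3. Wild type replicate 3 was the lowest of its group for 34 of the 35 genes, knockout replicate 1 the highest of its group for 29 and knockout replicate 2 the lowest of its group for 33. Both wild type replicates 1 and 2 were above all 3 knockout libraries for 32 genes. In bulk RNA, fewer cells of a type and less RNA in each cell cannot be told apart.

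**Figure D1:**
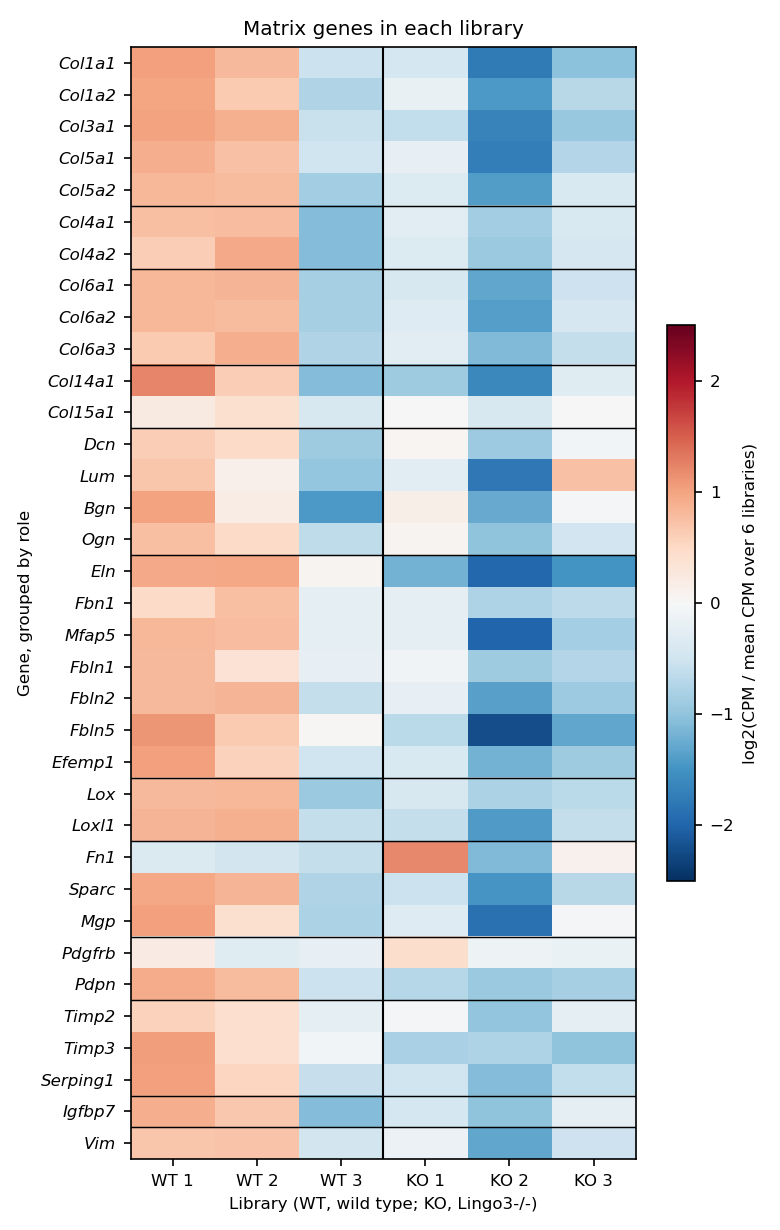
Level of the 35 matrix genes in each library, as log2 of CPM over the gene's mean in the 6 libraries (red above, blue below), with 1 row per gene, lines between role groups and a line between genotypes. Wild type replicates 1 and 2 are red for nearly all genes, wild type replicate 3 is blue for most, and Fn1 and Pdgfrb are highest in knockout replicate 1.

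The comparison of genotypes asks which of these transcripts differ when Lingo3 is deleted. Elastin, fibulin 5 and the protease inhibitor Timp3 fell in knockout, and no matrix gene rose. In a quasi-likelihood fit with edgeR, adjusted over 16856 genes after Benjamini and Hochberg, 3 of 35 (8.57%) were lower at an adjusted p under 0.05, against 5.97% of all genes tested, and 0 were higher, against 9.43%. The share called lower at that threshold is therefore near that of the whole table. At an unadjusted edgeR p under 0.05, 13 of 35 were lower, a larger share than the 14.5% of all genes. At that level 0 were higher, against 16.7% of all genes, and DESeq2 and limma-voom also called 0 higher. All 35 passed the filter on low counts. Fbln5 was kept on its wild type counts, as its 4 and 5 counts in knockout replicates 2 and 3 were under the minimum. Kept through the group where it was higher, it had little room for a call in the other direction.

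The sizes of the differences stood further from the rest of the table than the calls did. The fitted log2 fold change, knockout minus wild type (the log2 difference below), was below 0 for 33 of 35 genes, against 52.8% of all genes, with a median of -1.08 against -0.03 over all genes. It was -1 or lower for 20 genes (57.1%), against 4.01% of all genes, and 17 of those 20 did not pass the test. The spread between replicates was wide: the median standard deviation of log2 CPM was 0.82 in wild type and 0.49 in knockout for the matrix genes, against 0.16 and 0.18 for all genes tested, and 1.33% of all genes had a wild type spread as large as the matrix median. The groups did not overlap, with knockout lower, for 7 of the 35 genes, against 16.0% of all genes, and with knockout higher for 0, against 19.7%. The 7 were Eln, Fbln5, Timp3, Col3a1, Fbn1, Mfap5 and Pdpn. Without the low wild type replicate 3, 22 of 35 were called lower, against 4.46% of all genes in that fit. That library was the lowest of its group for 34 genes, so leaving it out raised their wild type means. Passing in that fit, given below for single genes, is therefore no added support for a fall. Without knockout replicate 2 or knockout replicate 3 only Eln was called lower, against 2.66% and 2.31%.

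**Figure D2:**
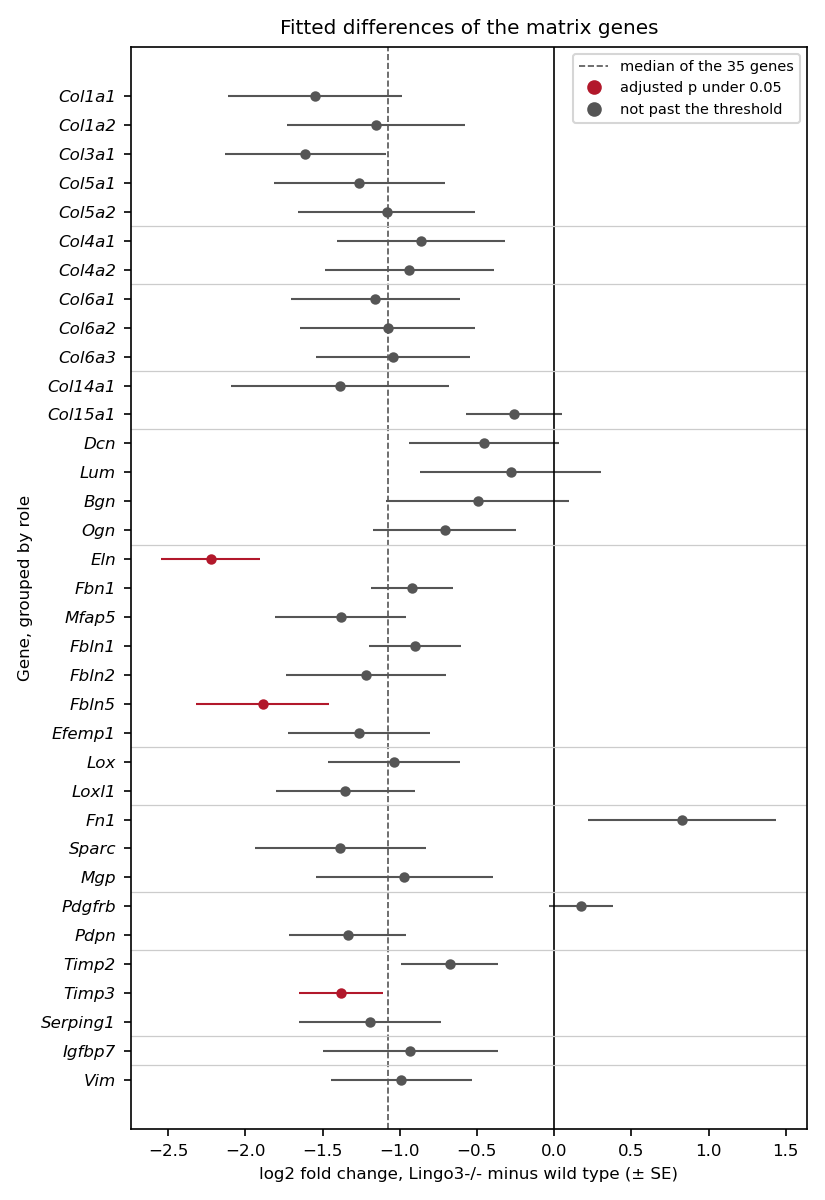
Fitted log2 difference of each matrix gene, knockout minus wild type, with its standard error as the bar, in the order of the role groups. Eln, Fbln5 and Timp3 (red) passed an adjusted p of 0.05; most other genes lie near the median of -1.08 (dashed) with bars about 0.5 wide on each side, and only Fn1 and Pdgfrb lie above 0.

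Among proteins of elastic fibres, 2 of 7 genes fell, against 5.97% of all genes tested. Eln (GRCm38 chromosome 5 from 134702593 to 134747323) encodes elastin, the rubber-like core of the fibre, and had 102, 128 and 60 counts in the wild type and 21, 12 and 11 in the knockout libraries. Of its exon length, 3.30% overlaps the annotated gene Gm30003. Every knockout library was below every wild type library, including wild type replicate 3 at 60 counts. Group means were 4.07 ± 1.27 CPM in wild type and 0.866 ± 0.223 CPM in knockout (SD, n = 3). The log2 difference was -2.22 ± 0.32 (SE; edgeR adjusted p = 0.00194), and the call was kept in all 6 fits that left out 1 library (highest edgeR adjusted p = 0.0182). Fbln5 (chromosome 12 from 101746565 to 101819055), whose protein fibulin 5 guides elastin onto microfibrils, had 45, 41 and 23 counts in the wild type and 12, 4 and 5 in the knockout libraries, again with no overlap. Its means were 1.55 ± 0.553 and 0.410 ± 0.203 CPM (SD, n = 3), with a log2 difference of -1.89 ± 0.43 (SE; edgeR adjusted p = 0.0138). With so few counts its size is uncertain, and its call was lost without knockout replicate 2 (edgeR adjusted p = 0.0538) and without knockout replicate 3 (0.0599).

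The other 5 elastic fibre genes with a row were lower by less, and none passed. Fbn1 encodes fibrillin 1, the main microfibril protein, and 20.1% of its exon length overlaps another annotated gene, Gm9913, on the opposite strand. It stood at 18.6, 22.4 and 11.3 CPM in wild type and 11.3, 7.80 and 8.48 CPM in knockout (log2 difference -0.92 ± 0.26, SE; edgeR adjusted p = 0.0551). Wild type replicate 3 and knockout replicate 1 were level at 11.3 CPM. Mfap5, another microfibril protein, stood at 4.86, 4.64 and 2.34 CPM in wild type and 2.32, 0.690 and 1.52 CPM in knockout (edgeR adjusted p = 0.0588), with wild type replicate 3 and knockout replicate 1 again next to each other. The adjusted p was 0.0767 for the fibulin gene Fbln1, 0.193 for Fbln2 and 0.141 for Efemp1 (fibulin 3), with log2 differences of -0.90, -1.22 and -1.27 by edgeR. Fbn1, Mfap5 and Fbln1 passed without wild type replicate 3 (edgeR adjusted p = 0.00502, 0.0245 and 0.0207) and without knockout replicate 1 (0.0483, 0.0212 and 0.0306), and Fbln2 and Efemp1 without wild type replicate 3 (0.0296 and 0.00978).

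Among the matrix genes, the lysyl oxidase genes Lox and Loxl1 had log2 differences below 0 and did not pass. Lysyl oxidases oxidise lysines of elastin and collagen so that fibres can be joined. Lox stood at 4.02, 4.07 and 1.21 CPM in wild type and 1.75, 1.33 and 1.44 CPM in knockout (log2 difference -1.04 ± 0.43, SE; edgeR adjusted p = 0.137). Loxl1, the form tied to elastic fibres, stood at 12.6, 13.01 and 4.68 CPM in wild type and 4.69, 2.65 and 4.64 CPM in knockout (log2 difference -1.35 ± 0.45, SE; edgeR adjusted p = 0.0984). For both genes wild type replicates 1 and 2 were high and wild type replicate 3 lay below the highest knockout library. Both passed without wild type replicate 3, at an edgeR adjusted p of 0.00903 for Lox and 0.00285 for Loxl1.

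Among protease inhibitors, Timp3, which blocks metalloproteinases and stays bound to matrix, also fell. Timp3 stood at 22.96, 14.97 and 10.6 CPM in wild type and 6.39, 6.52 and 5.60 CPM in knockout. The knockout libraries lay close together, and the lowest wild type library, replicate 3, was above all of them. Means were 16.2 ± 6.26 and 6.17 ± 0.499 CPM (SD, n = 3). The log2 difference was -1.38 ± 0.27 (SE; edgeR adjusted p = 0.0142), lost without knockout replicate 2 (edgeR adjusted p = 0.0765) and without knockout replicate 3 (0.0718). Timp3 lies on chromosome 10 from 86300372 to 86349506, and 21.3% of its exon length overlaps Syn3 on the other strand, where reads cannot be assigned without the strand setting. Timp2, another inhibitor of metalloproteinases, stood at 32.7, 29.5 and 18.5 CPM in wild type and 21.1, 11.03 and 18.6 CPM in knockout (edgeR adjusted p = 0.207), and its groups overlapped. Serping1, the inhibitor of complement C1, stood at 59.7, 42.6 and 19.6 CPM in wild type and 20.6, 13.7 and 18.95 CPM in knockout (edgeR adjusted p = 0.160), with wild type replicate 3 between knockout replicates 1 and 3, and passed without wild type replicate 3 (0.00590).

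**Figure D3:**
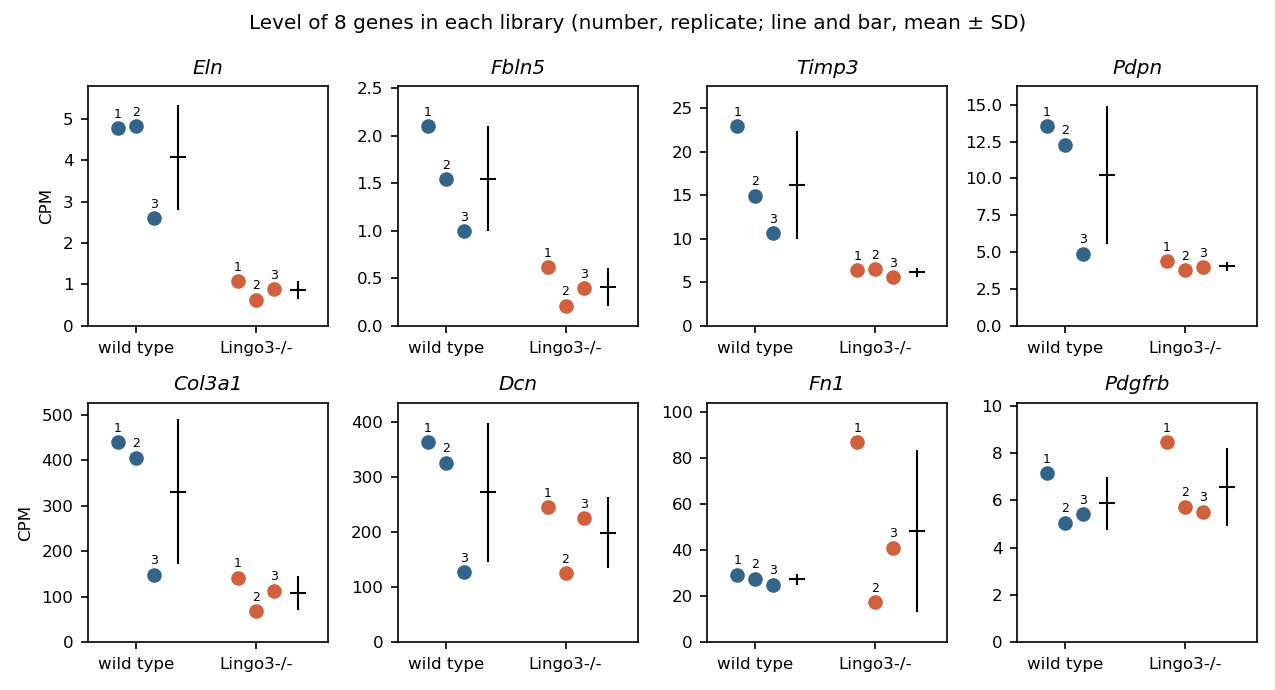
CPM of 8 genes in each library (points, numbered by replicate, blue wild type, orange knockout), with the mean and SD of each group (n = 3) beside them and axes from 0. Eln, Fbln5, Timp3, Pdpn and Col3a1 have no overlap between groups, whereas Dcn, Fn1 and Pdgfrb overlap and Fn1 is spread widely in knockout.

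Fibrillar collagens, the load-bearing fibres of connective tissue, summed to 679.8, 610.2 and 227 CPM in wild type and 243, 110.1 and 187 CPM in knockout, and 0 of 5 passed. Col3a1, the collagen III chain of pliable tissues, stood at 439, 405 and 148 CPM in wild type and 142, 68.6 and 114 CPM in knockout. Its groups did not overlap, but wild type replicate 3 and knockout replicate 1 were nearly equal, and the log2 difference of -1.61 ± 0.52 (SE) had an edgeR adjusted p of 0.113. Col1a1, a chain of collagen I, stood at 85.5, 73.9 and 29.1 CPM in wild type and 31.2, 12.4 and 20.7 CPM in knockout (log2 difference -1.55 ± 0.56, SE; edgeR adjusted p = 0.146). Its partner Col1a2 stood at 97.1, 77.03 and 29.1 CPM in wild type and 42.9, 18.2 and 30.2 CPM in knockout (log2 difference -1.15 ± 0.58, SE; edgeR adjusted p = 0.257). Col5a1 and Col5a2, chains of the collagen V that starts fibrils, had log2 differences of -1.26 and -1.09 (edgeR adjusted p = 0.201 and 0.273). Without wild type replicate 3, Col1a1 (edgeR adjusted p = 0.0398), Col3a1 (0.0101) and Col5a2 (0.0224) passed.

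None of the remaining collagens among the matrix genes passed. Col4a1 and Col4a2, the chains of basement membrane collagen IV, summed to 32.5, 36.04 and 9.50 CPM in wild type and 16.2, 10.8 and 15.2 CPM in knockout, and wild type replicate 3 was the lowest of the 6 libraries. Their edgeR adjusted p values were 0.349 and 0.309. Col6a1, Col6a2 and Col6a3, chains of the beaded collagen VI around cells, summed to 227, 231 and 73.2 CPM in wild type and 101, 52.6 and 92.1 CPM in knockout, with wild type replicate 3 above knockout replicate 2 only. Their log2 differences were -1.16, -1.08 and -1.04 (edgeR adjusted p = 0.236, 0.273 and 0.234). The 5 genes passed in the fit without wild type replicate 3 (highest edgeR adjusted p = 0.0423, for Col6a2). Col14a1, which coats fibrils, ranged from 10.4 to 74.4 CPM (log2 difference -1.39 ± 0.71, SE; edgeR adjusted p = 0.264), and Col15a1, which links basement membrane to fibrils, from 0.902 to 1.58 CPM (log2 difference -0.26, edgeR adjusted p = 0.604).

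Count ratios of partner chains ranged less than the chains' summed levels in all 4 pairs compared, by 1.12-fold to 1.65-fold against 3.79-fold to 5.97-fold. Most matrix genes shared a pattern across libraries, and pairs that are not partner chains were not compared. Whether a steady ratio is particular to partner chains was therefore not tested. The count of Col6a1 was 1.51 to 1.69 times that of Col6a2 in the 6 libraries, although their summed CPM differed 4.46-fold between libraries. Col4a1 had 1.42 to 1.78 times the counts of Col4a2 over a 3.79-fold range of level. The count of Col5a1 over that of Col5a2 had the widest range, at 1.10, 1.01 and 1.36 in wild type and 1.16, 0.830 and 0.826 in knockout. The count of Col1a1 over that of Col1a2 was 0.881, 0.959 and 1.00 in wild type and 0.726, 0.682 and 0.687 in knockout. The Col1 means were 0.947 ± 0.0611 and 0.699 ± 0.0242 (SD, n = 3), and in this pair alone of the 4 the groups stood apart. For it the 2-sided exact permutation p was 0.1, the smallest 3 against 3 libraries can give, and 0.4 after Benjamini-Hochberg adjustment over the 4 pairs compared. For Col4a1 to Col4a2, Col5a1 to Col5a2 and Col6a1 to Col6a2 the groups overlapped (exact permutation p = 0.7, 0.3 and 0.4).

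The start regions of some of these genes are printed because their transcripts moved together across libraries (Col1a2, Col3a1 and the collagen IV pair) or passed the test (Timp3 and Fbln5). Each is 300 bases, 250 before and 50 after the RefSeq transcript start, 5′ to 3′ on the gene's strand, from RefSeq on GRCm38.p6. Capitals mark 3 motifs on either strand. They are CCAAT (the letters of the CAAT box), the box motif TATAAA, and the GC box motif GGGCGG, and no matches overlap in these windows. The windows are chr6:4505368-4505667 (plus strand), chr1:45311288-45311587 (plus), chr8:11312555-11312854 (plus), chr10:86300162-86300461 (plus) and chr12:101819070-101819369 (minus, the more upstream of 2 Fbln5 windows).
Col1a2: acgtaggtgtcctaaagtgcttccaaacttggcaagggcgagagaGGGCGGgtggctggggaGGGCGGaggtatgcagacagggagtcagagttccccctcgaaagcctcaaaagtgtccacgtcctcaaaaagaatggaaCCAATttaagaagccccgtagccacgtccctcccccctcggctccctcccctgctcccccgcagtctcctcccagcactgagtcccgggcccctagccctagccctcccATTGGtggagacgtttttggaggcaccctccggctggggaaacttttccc
Col3a1: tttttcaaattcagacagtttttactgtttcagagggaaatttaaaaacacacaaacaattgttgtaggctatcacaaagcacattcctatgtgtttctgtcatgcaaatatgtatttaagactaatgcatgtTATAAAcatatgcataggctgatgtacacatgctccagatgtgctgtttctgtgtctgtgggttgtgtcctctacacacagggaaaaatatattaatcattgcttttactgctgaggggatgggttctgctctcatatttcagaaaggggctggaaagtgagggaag
Col4a2: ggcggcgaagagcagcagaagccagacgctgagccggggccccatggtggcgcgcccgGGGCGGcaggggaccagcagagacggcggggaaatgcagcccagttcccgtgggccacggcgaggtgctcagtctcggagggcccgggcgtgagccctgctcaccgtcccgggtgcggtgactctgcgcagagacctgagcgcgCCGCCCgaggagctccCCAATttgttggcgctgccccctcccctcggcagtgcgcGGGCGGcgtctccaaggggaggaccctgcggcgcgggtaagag
Timp3: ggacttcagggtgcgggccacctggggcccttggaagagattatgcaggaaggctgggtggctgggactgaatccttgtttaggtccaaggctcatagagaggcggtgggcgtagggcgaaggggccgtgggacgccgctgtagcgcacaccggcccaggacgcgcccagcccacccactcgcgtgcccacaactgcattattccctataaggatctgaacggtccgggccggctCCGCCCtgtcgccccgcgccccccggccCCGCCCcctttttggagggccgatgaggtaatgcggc
Fbln5: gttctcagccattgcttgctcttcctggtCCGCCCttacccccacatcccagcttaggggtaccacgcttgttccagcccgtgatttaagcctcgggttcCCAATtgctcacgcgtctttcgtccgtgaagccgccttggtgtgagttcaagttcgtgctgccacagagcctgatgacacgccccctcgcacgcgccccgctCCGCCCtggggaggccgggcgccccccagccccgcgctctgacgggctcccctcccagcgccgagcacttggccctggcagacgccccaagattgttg
The window of Col4a2 also holds the start of Col4a1, which is read from the opposite strand: the first exons overlap by 22 bases. It holds 3 GGGCGG and 1 CCAAT. Col1a2 holds 2 CCAAT and 2 GGGCGG, Col3a1 only 1 TATAAA, Timp3 2 GGGCGG, and Fbln5 1 CCAAT and 2 GGGCGG. The RefSeq table held 25 windows for 22 of the 35 matrix genes. GGGCGG lay in 16 of them (64.0%), against 35.7% of all 32851 windows, CCAAT in 6 (24.0%, against 37.4%) and TATAAA in 3 (12.0%, against 13.6%). A match describes the letters only, and the names stand for no binding measured here.

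The small leucine-rich proteoglycans, which bind and space collagen fibrils, had a median log2 difference of -0.48, and 0 of 4 passed. Per kilobase of exon, Dcn (decorin) had the highest level of all listed genes, 40.3 CPM per kb, ahead of Col3a1 (22.4), Vim (18.9), Col6a1 (16.2), Sparc (14.2) and Serping1 (12.6), all as means over the 6 libraries. Dcn was first in either genotype, but the next places turned: Col3a1 stood at 33.7 and Vim at 25.2 CPM per kb in wild type, and at 11.03 and 12.7 in knockout. Dcn stood at 363, 326 and 127 CPM in wild type and 245, 125 and 226 CPM in knockout. Wild type replicate 3 and knockout replicate 2 were the lowest, and the other 2 knockout libraries lay well above them (log2 difference -0.45 ± 0.49, SE; edgeR adjusted p = 0.580). Ogn (osteoglycin) had a log2 difference of -0.71 (edgeR adjusted p = 0.362). Lum (lumican) had 6 to 38 counts and Bgn (biglycan) 11 to 60 counts per library, with edgeR adjusted p of 0.781 and 0.609. In none of the fits run did any of these 4 genes pass.

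Among adhesive and matricellular proteins, fibronectin had a pattern of its own. Fn1 stood at 29.5, 27.7 and 25.02 CPM in wild type and 86.9, 17.6 and 41.1 CPM in knockout. The wild type libraries were close together, and knockout replicate 1 alone was at about 3 times their level, so that the fitted change of 0.83 ± 0.61 (log2, SE; edgeR adjusted p = 0.424) rested on that library: without it the value was 0.09. Macrophages also express Fn1. The summed level of 12 macrophage and dendritic cell genes was 98.2, 92.1 and 84.5 CPM in wild type and 215, 48.4 and 118 CPM in knockout, highest in knockout replicate 1, and 7 of the 12 had their highest CPM there; their part in the Fn1 level was not tested. Of that list's 10 tested genes, the Fc receptor chain gene Fcer1g (-0.95) and the integrin gene Itgax (-0.72) fell and 0 rose. Of all genes, 5.97% fell and 9.43% rose. Without knockout replicate 2, 1 of the list fell and 3 rose, against 2.66% and 5.05% of all genes. With any 1 of wild type replicates 2 and 3 and knockout replicates 1 and 3 left out, 1 fell and 0 rose. In those fits 2.31 to 6.04% of all genes were lower and 3.98 to 9.12% higher. With library totals only, 1 of the list fell and 1 rose, against 2.49% and 32.1% of all genes. Itgax lost its call in 4 of the 6 fits and Fcer1g in 1, without knockout replicate 3 (highest edgeR adjusted p = 0.129 and 0.0566). Sparc, a collagen-binding glycoprotein, stood at 104, 96.7 and 31.96 CPM in wild type and 36.9, 19.5 and 33.03 CPM in knockout (log2 difference -1.38 ± 0.55, SE; edgeR adjusted p = 0.174), and passed without wild type replicate 3 (0.0107). Mgp, an inhibitor of calcification, had 14 to 118 counts (edgeR adjusted p = 0.296).

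The remaining matrix genes, for surface, cytoskeletal and secreted proteins, had unlike values. Pdgfrb, a growth factor receptor of pericytes and fibroblasts, stood at 7.15, 5.05 and 5.42 CPM in wild type and 8.44, 5.73 and 5.52 CPM in knockout, with overlapping groups and a log2 difference of 0.17 ± 0.21 (SE; edgeR adjusted p = 0.599). Pdpn (podoplanin), carried by lymphatic endothelium, mesothelium and some fibroblasts, stood at 13.6, 12.3 and 4.90 CPM in wild type and 4.38, 3.77 and 3.999 CPM in knockout. Wild type replicate 3 lay just above the knockout libraries, and the log2 difference of -1.34 ± 0.38 (SE) missed the threshold (edgeR adjusted p = 0.0562), but passed without wild type replicate 3 (0.00103). Vim, the intermediate filament of mesenchymal and blood cells, stood at 146, 147 and 65.1 CPM in wild type and 81.5, 36.4 and 62.7 CPM in knockout (log2 difference -0.99 ± 0.46, SE; edgeR adjusted p = 0.222). Igfbp7, a secreted binder of insulin-like growth factors, stood at 19.4, 16.5 and 4.90 CPM in wild type and 7.62, 5.2 and 8.72 CPM in knockout (edgeR adjusted p = 0.333), with wild type replicate 3 the lowest library, and passed without that library (0.00486).

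The 7 listed genes with no row in the authors' comparison were scarce. Dpt (dermatopontin, which binds decorin) had 27, 26 and 26 counts in the wild type and 11, 4 and 5 in the knockout libraries, and Postn (periostin, a matricellular protein of remodelling tissue) had 31, 34 and 13 counts in the wild type and 7, 7 and 6 in the knockout libraries. Neither had overlapping groups, and both passed the test (log2 difference -1.49 ± 0.39 and -1.46 ± 0.44, SE, with edgeR adjusted p = 0.0247 and 0.0423). Of all genes tested, 16.0% did not overlap with knockout lower, and 5.97% were called lower. The low-count filter kept Dpt and Postn on their wild type counts, where they were higher. Their calls therefore had little room to go the other way. Leaving out any wild type library, or knockout replicate 2 or 3, ended the call of Dpt (highest edgeR adjusted p = 0.103), and leaving out any knockout library ended that of Postn (0.118). Postn had no value without wild type replicate 1 or 2, where it was below the filter, and passed without wild type replicate 3 (0.0175). It was also not called with library totals only (edgeR adjusted p = 0.0552), limma-voom (0.0808) or a block for replicate number (0.0560). Pdgfra, the receptor that defines most gut fibroblasts, had 18, 26 and 16 counts in the wild type and 9, 2 and 5 in the knockout libraries (log2 difference -1.39 ± 0.46, SE; edgeR adjusted p = 0.0617). Sparcl1, a relative of Sparc, had 2 to 20 counts, the chemokine gene Cxcl12 had 2 to 9, the BMP antagonist gene Grem1 0 to 6, and Mfap4, a microfibril protein, 0 or 1. These last 4 were below the filter and were not tested.

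Several genes that define fibroblasts were near the limit of detection. Of 16 fibroblast markers outside the matrix, Foxl1 had 0 counts in every library, and the transcription factors Prrx1, Twist1, Twist2, Tcf21 and Foxf2 had at most 10. Their summed level was 71.4, 67.5 and 49.7 CPM in wild type and 53.04, 35.2 and 45.3 CPM in knockout, so wild type replicate 3 was again the lowest of its group. Of 10 tested, 4 fell and 0 rose, against 5.97% and 9.43% of all genes. The 4 were Pi16, of adventitial fibroblasts (-2.30), Osr1 (-1.46), Thy1, which T cells also express (-1.24), and the chemokine scavenger Ackr4 (-0.64; log2 differences by edgeR, adjusted p = 0.0126, 0.0291, 0.0227 and 0.0138). That count of genes that fell was 2 without wild type replicate 1 or 2, 1 without knockout replicate 2 or 3, 4 without knockout replicate 1 and 5 without wild type replicate 3, and 1 gene rose without knockout replicate 2. In the fits without a library 2.31 to 6.04% of all genes were lower, and 5.05% were higher without knockout replicate 2. With library totals only, 3 of the 10 fell and 2 rose, against 2.49% and 32.1% of all genes. The part of fibroblast numbers in the matrix gene levels was not tested.

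Markers of the mesothelium, the outer lining of the gut wall, were abundant, with wild type replicates 1 and 2 highest and wild type replicate 3 near the knockout libraries, as for the matrix genes. Upk3b, a mesothelial marker, had 3008, 3258 and 1135 counts in the wild type and 964, 483 and 519 in the knockout libraries, Msln (mesothelin) had 2052, 2153 and 813 counts in the wild type and 614, 381 and 432 in the knockout libraries, and Lrrn4 had 1728, 1737 and 657 counts in the wild type and 436, 235 and 243 in the knockout libraries. These are raw counts, and the wild type libraries were deeper. In CPM, every knockout library was below every wild type library for 2 of the 5 mesothelial genes, against 16.0% of all genes tested. The 5 mesothelial genes together stood at 377, 325 and 136 CPM in wild type and 131, 76.5 and 122 CPM in knockout, with none of them at 0 in any library. None passed (median log2 difference -1.30; edgeR adjusted p = 0.0826 to 0.246), and 4 of 5 were lower without wild type replicate 3, against 4.46% of all genes. The summed matrix genes were 5.25, 5.51 and 5.18 times the mesothelial sum in wild type and 7.43, 6.16 and 6.58 times in knockout, a range of 1.44-fold, where the matrix sum itself ranged 4.20-fold. The same ratio ranged 2.07-fold against the summed fibroblast markers, 2.20-fold against blood endothelium, 3.04-fold against T cells, 3.11-fold against smooth muscle and 4.58-fold against epithelium. The part of mesothelial cells in the matrix gene levels was not tested.

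Other stromal and immune markers had ranges of their own. Beside the counts of called genes below, 5.97% of all genes tested were lower and 9.43% higher. In the fits without a library 2.31 to 6.04% were lower and 3.98 to 10% higher, and with library totals only 2.49% were lower and 32.1% higher. With library totals only, 0 smooth muscle genes fell, and 2 blood endothelial genes fell and 1 rose. In that fit 3 B and plasma cell genes fell and 1 rose. Smooth muscle genes summed to 83.9, 92.8 and 79.4 CPM in wild type and 70.8, 62.1 and 59.8 CPM in knockout, with Acta2 at 16 to 46 counts, Myh11, the contractile myosin, at 14 to 26, and Lmod1 at 0 in every library; Des (-1.32) and Mylk (-0.41) fell. Neither passed without wild type replicate 2, knockout replicate 2 or knockout replicate 3 (highest edgeR adjusted p = 0.156 and 0.1002), and Des not without wild type replicate 1, while 3 and 4 genes of the list fell without wild type replicate 3 and knockout replicate 1. Blood endothelial genes summed to 33.1, 31.5 and 22.2 CPM in wild type and 19.5, 17.3 and 17.5 CPM in knockout, with the cadherin gene Cdh5 at 1 to 8 counts; 3 of 7 tested fell. These were Pecam1 (-0.99), Kdr (-1.39) and Ptprb (-0.75), and Ptprb lost its call in each of the 6 fits without a library (highest edgeR adjusted p = 0.132). Pericyte genes summed to 7.39, 7.77 and 5.77 CPM in wild type and 5.56, 4.35 and 4.64 CPM in knockout, with Rgs5 at 0 to 3 counts. T cell genes summed to 203, 226 and 219.7 CPM in wild type and 122, 68.6 and 117 CPM in knockout, where wild type replicate 3 stood with its group and 13 of 15 genes fell, led by Cd8b1 (-2.40), Cd4 (-2.08), Trac (-1.26) and Zap70 (-1.19), with Cd3e at -1.001. B and plasma cell genes summed to 31.3, 61.7 and 35.3 CPM in wild type and 23.7, 27.5 and 27.4 CPM in knockout, where Pax5 (-2.16), Mzb1 (-2.07) and Cd79b (-1.67) fell. That count of 3 was 1 without knockout replicate 2 or 3, 2 without wild type replicate 2 and 5 without wild type replicate 1, and Mzb1 and Cd79b lost their calls in 3 and 2 of the 6 fits (highest edgeR adjusted p = 0.0800 and 0.0650). Lymphatic endothelial genes summed to 13.8, 8.56 and 7.94 CPM in wild type and 9.22, 7.43 and 7.84 CPM in knockout, and none of them passed. Kit, Ano1 and Etv1, listed as markers of interstitial cells of Cajal, summed to 188, 155 and 156 CPM in wild type and 176, 181 and 191 CPM in knockout, and Kit rose (0.53). Their sum was above that of the smooth muscle genes in every library. Which cells these transcripts came from was not tested. Pan-epithelial genes summed to 7274, 6124 and 7049 CPM in wild type and 7084, 7371 and 8670.1 CPM in knockout, and Cdx1 (0.63), Krt18 (0.49) and Tspan8 (0.44) rose (all as log2 differences by edgeR, largest adjusted p of those named here 0.0472, for Ptprb). The epithelial count of 3 higher was 10 of 14 with library totals only, 5 without wild type replicate 1, 4 without knockout replicate 1, 2 without knockout replicate 2, wild type replicate 2 or wild type replicate 3, and 1, beside 1 lower, without knockout replicate 3. Tspan8 lost its call in 4 of the 6 fits and Krt18 in 1, without knockout replicate 3. The parts of these cell types in the matrix gene levels were not tested. Pecam1 and Kdr of endothelium kept their call in all 6 fits without a library (highest edgeR adjusted p = 0.0485 and 0.0445).

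**Figure D4:**
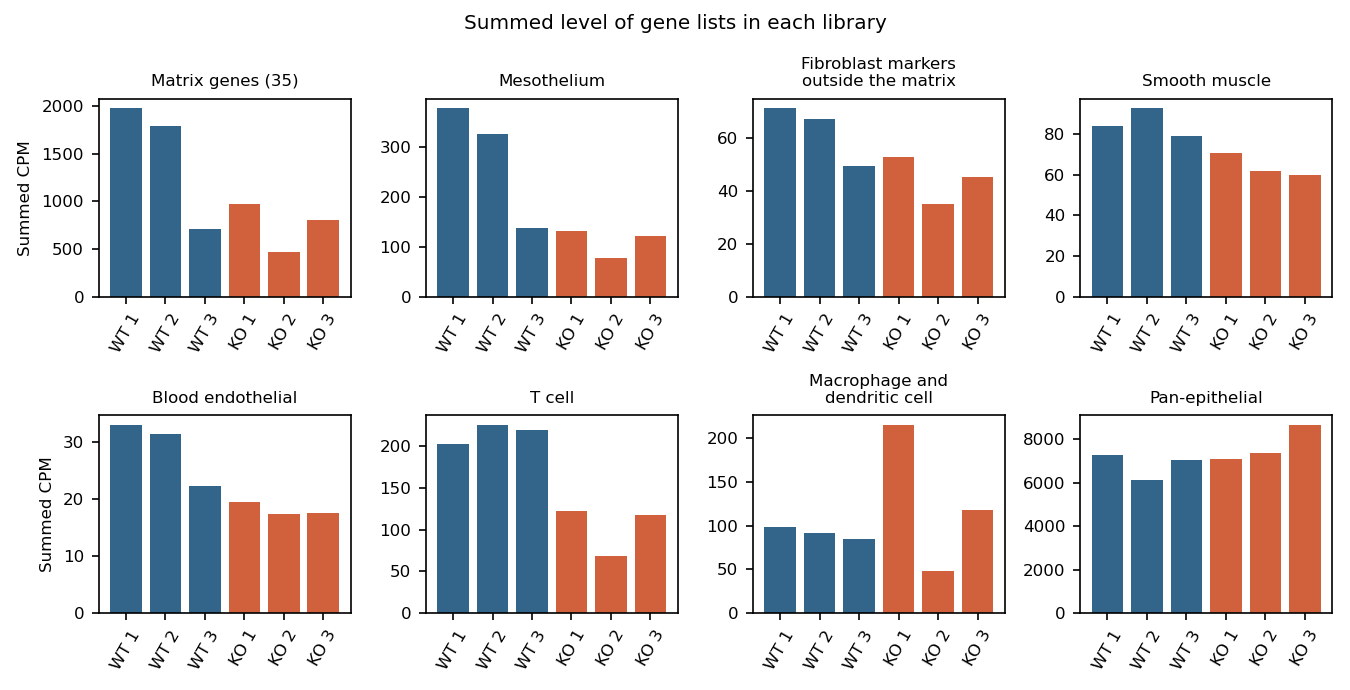
Summed CPM of the 35 matrix genes and of 7 marker lists in each library (blue wild type, orange knockout; axes from 0, 1 bar per library). The matrix and mesothelium panels share a low wild type replicate 3, the T cell panel does not, and the macrophage panel peaks in knockout replicate 1.

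The wider matrix pathway, 188 other genes in 7 lists, held genes that fell and genes that rose. Of 145 tested, 13 fell and 12 rose, against 5.97% and 9.43% of all genes, with a median log2 difference of -0.35 against -0.03. Without wild type replicate 3, 34 fell and 7 rose, against 4.46% and 5.61% of all genes. Without wild type replicate 1 or 2, 8 and 7 fell, without knockout replicate 1, 21 fell, and without knockout replicates 2 and 3, 3 and 4 fell and 10 and 6 rose. In those fits 2.31 to 6.04% of all genes were lower, and 5.05% and 3.98% were higher without knockout replicates 2 and 3. With library totals only, which moved the median of all genes to 0.26, 6 fell and 28 rose, against 2.49% and 32.1% of all genes. Of the 25 genes called, 7 kept their call in all 6 fits without a library, and the other 18 lost it in at least 1 of them, with highest edgeR adjusted p of 0.0521 to 0.161.

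Those that kept it include basement membrane and fibril partners of the matrix genes. Nid1 (nidogen 1, which ties laminin to collagen IV) fell by 1.73 on the log2 scale (edgeR adjusted p = 0.00239), and Fmod (fibromodulin, a collagen-binding proteoglycan) fell by 1.98 (edgeR adjusted p = 0.00588). The matricellular gene Ccn3 rose by 1.19, the collagen galactosyltransferase gene Colgalt1 by 0.53, the laminin-binding integrin subunit genes Itga6 and Itgb1 by 0.74 and 0.62, and the TGF-beta receptor gene Tgfbr1 by 0.64 (largest edgeR adjusted p of the 5 = 0.00785). Among those that lost it, the matricellular gene Ccn1 (-2.56), the protease inhibitor gene Reck (-1.79), Mmp23 (-1.62), Col4a4 (-1.15) of basement membranes, Pcolce (-1.10), which speeds procollagen trimming, Tgfb1 (-0.87), Loxl4 (-0.85), Adamtsl4 (-0.61), the procollagen protease gene Bmp1 (-0.57), the fibronectin receptor gene Itga5 (-0.46) and Smad7 (-0.40) were lower. Col8a1 (1.29), Mmp28 (0.77), Smoc2 (0.61), Vcan (0.59), Sdc2 (0.56), Plod3 (0.49) and Smad4 (0.36) were higher. Of the matrix receptors 1 of 24 fell and 3 rose, and of the TGF-beta list 2 of 17 fell and 2 rose, against 5.97% and 9.43% of all genes.

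The authors' deposited table, made with DESeq2 on the same libraries, called 10 of the 35 matrix genes lower and 0 higher at an adjusted p under 0.05, against 6.72% and 10% of its 15138 genes. These were Eln, Timp3, Pdpn, Fbn1, Mfap5, Fbln5, Fbln1, Col3a1, Timp2 and Col1a1. Of the 10, 3 were also called by edgeR and 7 were not. In the authors' deposited table Eln had a log2 difference of -2.22 with an adjusted p of 3.43e-07, Pdpn one of -1.32 with 0.000222 and Col1a1 one of -1.54 with 0.0463. DESeq2 run on the deposited counts called 11, the same 10 and Loxl1, against 6.78% of all genes, and 0 higher, against 10.1%.

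Across the other fits the number of matrix genes called lower moved widely, and 0 were called higher in any. RLE and upper-quartile factors gave 3 and 4 lower, where 5.99% and 8.1% of all genes were lower and 9.15% and 6.75% higher. Library totals alone gave 4, against 2.49% lower and 32.1% higher. limma-voom gave 3, against 5.4% and 9.12%, and edgeR on nuclear genes only gave 3, against 5.96% and 9.46%. A mean CPM of at least 1 gave 3 of 34 genes kept, against 7.14% and 10%, and no filter gave 9 of 35, against 5.75% and 6.8%. A block for replicate number gave 7, against 5.15% and 7.08%. An adjusted p under 0.1 in place of 0.05 gave 8, against 10.1% lower and 13.3% higher. Without wild type replicate 1 or 2 the count was 3, against 5.12% and 3.5% lower and 10% and 6.56% higher, and without knockout replicate 1 it was 6, against 6.04% and 9.12%. In the fits without wild type replicate 3 and without knockout replicates 2 and 3, 5.61%, 5.05% and 3.98% of all genes were higher.

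**Figure D5:**
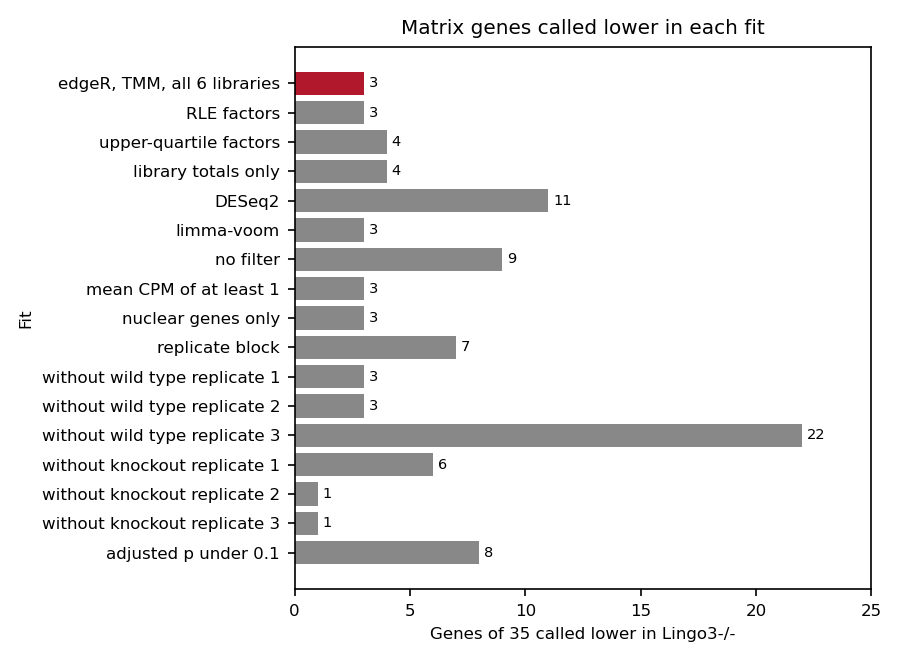
Number of the 35 matrix genes called lower in knockout in each fit (bars from 0; red, edgeR with TMM factors and all 6 libraries, grey, the alternatives). The count is 3 in the first fit, 22 without wild type replicate 3, 11 with DESeq2 and 1 without knockout replicate 2 or 3.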

How the data were processed

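The data are raw counts per Ensembl gene for 6 libraries, deposited by the authors with HTSeq summary lines, which were left out (53.6 to 60.1% of all reads counted). Per the submitters' processing notes, Trimmomatic 0.39, STAR, HTSeq and DESeq2 and the build GRCm38 were used; per the labels' protocols the libraries were stranded total RNA after ribosomal depletion. Other versions, the strand setting and the annotation release (not given in the sources used here) are left unstated. A second deposited table holds the authors' DESeq2 log2 fold changes and p-values, used descriptively, a score (the Wald statistic, not used), and normalized signal values, which are the deposited counts times 1 factor per library (largest relative deviation 5.00e-15).

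Gene symbols and positions came from GENCODE M21 on GRCm38, where 98.2% of 46078 identifiers had an entry. Genes were kept by filterByExpr (minimum count 10) and tested by genotype with edgeR 4.0.16 (TMM factors, robust quasi-likelihood, 2-sided, Benjamini-Hochberg over 16856 genes) in R 4.3.3, with DESeq2 1.42.0 and limma 3.58.1 as alternatives. Standard errors are the log2 fold change over the root of the F statistic. Levels per kb use the summed exon length of each gene. A floor of 3 counts covers counting error only. The methods were tested on simulated counts. No pair of replicates agreed within sampling noise (chi-square per degree of freedom at least 9.40).

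The members and lists were chosen with earlier results of these data known. Described in full are the genes called and the highest of each role group; of other lists, the called genes (up to 4 per direction) and preset markers, of which 1 list is not reported here. The mesothelial genes Upk3b and Lrrn4, Foxl1 and other markers named at 0 or low counts were singled out after their values were seen. Alternatives were other scaling factors, DESeq2, limma-voom, no low-count filter, mean CPM of 1 or more, nuclear genes only, the replicate number as a block, an adjusted p under 0.1 and each library left out in turn.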

Additional observations from a re-analysis of the deposited data

How the results depend on the processing

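Beside the 3 matrix genes called lower, other fits called 11 (DESeq2), 9 (no filter on low counts) and 8 (adjusted p under 0.1), and 3 or 4 with RLE or upper-quartile factors, library totals, limma-voom, a mean CPM of at least 1 and nuclear genes only. Leaving out single libraries gave 1 to 22: 22 without wild type replicate 3, 6 without knockout replicate 1, 3 without wild type replicate 1 or 2 and 1 without knockout replicate 2 or 3; the cause was not tested. With the replicate number as a block 7 were lower, but the numbers do not pair the libraries: deviations of same-numbered libraries from their group means correlated at -0.01, -0.12 and -0.10 across genes. The median log2 fold change of the 35 genes lay between -1.43 (without wild type replicate 3) and -0.79 (library totals only). Direction turned for 4 genes, none of them called. With library totals only Col15a1 was at 0.024 and Lum at 0.0039. Leaving out single libraries gave -0.90 to 0.18 for Lum, -0.90 to 0.13 for Bgn and -0.051 to 0.36 for Pdgfrb. Genes with few counts, such as Fbln5, Lum, Bgn, Dpt and Postn, are limited by depth, most in knockout replicate 3.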
